A study of Mus musculus with 96 samples.

Results

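The 10 genes described here store iron, move it between cells, or set how much of it enters the blood. They were chosen by name, and all 10 were found once each among the 56748 genes of the count table: the hepcidin genes Hamp and Hamp2, their upstream regulators Bmp6 and Hfe, the ferritin chains Fth1 and Ftl1, transferrin (Trf), its receptors Tfrc and Tfr2, and the iron exporter ferroportin (Slc40a1). As background, hepcidin is a peptide hormone made by hepatocytes that binds ferroportin and causes its removal from cell surfaces, so that less iron is released into plasma. Its gene is switched on through BMP-SMAD signalling, for which BMP6 from liver endothelial cells is a ligand, and HFE and transferrin receptor 2 take part in sensing transferrin-bound iron. Inside cells, iron regulatory proteins bind stem-loops in the untranslated ends of ferritin, ferroportin and transferrin receptor messages, where they block translation or protect the message.

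The study compared mice fed ad libitum (AL) with mice on intermittent fasting (IF), and read RNA from liver, skeletal muscle and cerebral cortex. The males, mice 1 to 16, were C57BL/6 animals that fasted 16 h a day or ate freely for 4 months from 6 weeks of age. Their tissues were collected after perfusion within a span of morning hours, which the study's methods place at the end of the fast of the IF mice. That fast ran from afternoon to morning, so the IF mice ate by day. The labels give 48 further libraries from females, mice 25 to 40, marked AL or IF, without strain, age, length of the fast or duration, so sex and everything else that may separate the 2 series of mouse numbers cannot be told apart. Each tissue held 8 mice per sex and diet, except for 7 male AL cortex libraries.

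One library labelled male AL cortex, replicate 1, was left out: it held 213 CPM (counts scaled to equal library totals) of Xist, the RNA that silences an X chromosome in females, and no read of the Y-linked Ddx3y. The 47 other male libraries had at most 0.612 CPM of Xist and between 25.1 and 70.8 CPM of Ddx3y, and the 48 female libraries had between 36.8 and 1627 CPM of Xist. With that library kept, 0 of 8 tested iron genes still passed in male cortex, and the number of all genes that passed went from 1332 to 294 (1.60%). The 95 libraries used held between 26097314 and 49838004 counts on genes (median 36132954).

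Tissue identity was read from markers. Hepatocyte genes (Alb, Apoa1, Ttr, Apob, Serpina1c) summed to a median of 56282 CPM in male AL liver and 0.396 CPM in male AL muscle, but reached 3103 CPM in male AL, 3367 in male IF, 119 in female AL and 4270 in female IF cortex (medians 29.1, 15.5, 18.9 and 9.17), where Ttr was the most abundant of them by median. Skeletal muscle genes (Acta1, Ckm, Myh4, Tnnt3, Ttn) summed to 124882 CPM in male AL muscle and 0.593 CPM in male AL liver. Neuronal genes (Snap25, Syt1, Rbfox3, Slc17a7, Gad1) summed to 6093 CPM in male AL cortex. Choroid plexus genes (Kl, Folr1, Kcnj13, Otx2, Clic6), a sign of tissue beside the cortex, ranged from 1.93 to 63.3 CPM among male AL, 2.94 to 110 among male IF, 2.74 to 8.63 among female AL and 1.61 to 115 among female IF cortex libraries.

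The 10 genes divided the tissues between them. Hamp was found in liver, at 886 to 5401 CPM over 32 mice (median 2123), and no library of muscle exceeded 0.204 CPM (9 reads) or of cortex 0.107 CPM (4 reads). Hamp2 lay between 1.78 and 1416 CPM in liver, and its highest value elsewhere was 0.639 CPM in cortex. Transferrin was highest in liver (median 6652 CPM, 3005 to 10615), then cortex (319, 222 to 453), then muscle (32.5, 7.31 to 183), and these ranges were separate in each sex and diet, except for cortex and muscle of female IF mice on the TMM scale described next. Tfr2 followed the same order, with medians of 475, 12 and 0.0745 CPM, again separate in each of the 4 groups.

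Ferritin heavy chain, Fth1, was spread over all 3 tissues, at a median of 2995 CPM in cortex, 1898 in muscle and 1108 in liver. Those ranges did not overlap within any sex and diet, but the order of cortex and muscle depends on the scale: with TMM-scaled libraries the muscle median stood above the cortex median in 3 of 4 groups, and the 2 tissues overlapped in all 4. On that scale cortex and liver also overlapped in male IF mice. The light chain, Ftl1, was a liver gene by comparison (median 2011 CPM, against 210 in cortex and 136 in muscle). Its cortex values lay above those in muscle, with overlap in male IF mice, but on the TMM scale muscle was higher in 3 of 4 groups and the 2 tissues overlapped in all 4.

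The transferrin receptor Tfrc, the route by which most cells take up iron, had medians of 79.7 CPM in muscle, 60.7 in cortex and 14.1 in liver, with the liver range separate from both. Ferroportin was highest in liver (median 75.5 CPM), then muscle (24.7), then cortex (7.69), and liver and muscle overlapped in male AL mice. Hfe had like levels in liver and muscle (medians 32.3 and 32.9 CPM, overlapping) and a lower one in cortex (4.78). Bmp6 was least abundant in liver (median 2.04 CPM), with a range that overlapped with muscle in female IF mice, and its values in muscle (8.32) and cortex (7.56) overlapped in all 4 groups. On the TMM scale cortex and liver overlapped for Bmp6 in male IF and female IF mice, where they were separate in CPM. Muscle was on that scale above cortex for Bmp6 in all 4 groups, with separate ranges in 3, and for Tfrc with separate ranges in all 4, where CPM gave that in male AL mice alone. On that scale liver and muscle also overlapped for Slc40a1 in male IF mice, and were separate for Hfe in female IF mice.

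Levels of different genes were compared per kilobase of the length in the table. In male AL liver, Hamp was first with a median of 3773 CPM per kb, its range separate from that of the next gene, Trf (1242), which overlapped with Ftl1 (852). Fth1 (233), Tfr2 (93.0) and Hamp2 (23.6) followed, then Hfe (8.44), Slc40a1 (4.87), Tfrc (2.29) and, at the end, Bmp6 (0.366). Among these neighbours, Hamp2 overlapped with Hfe, and Slc40a1 with Tfrc. In female AL liver Hamp2 came after Ftl1 with 1116 CPM per kb, its range overlapping with those of Ftl1 (1537) and Fth1 (324). Fth1 led in muscle (586 CPM per kb in male AL mice) and cortex (772), each time separate from Ftl1 behind it (109 and 174).

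Fasting changed most of these genes in male liver. A gene was called when its p-value from edgeR, adjusted over all genes tested, was under 0.05. In male liver 7 of the 10 genes were called, in a comparison where 44.6% of all 16204 genes tested were. Of the 7, 6 were higher in IF mice (Trf, Ftl1, Fth1, Slc40a1, Tfr2, Bmp6), against 23.5% of all genes, and Hamp2 was lower, against 21.1% of all genes. Their median log2 fold change was 0.50 over the 10 genes and 0.06 over all genes.

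In female liver edgeR called 0 of the 10 genes, against 0% of all 15938 genes in either direction, higher or lower. At an unadjusted p under 0.05 it was 1 gene, Slc40a1 (5.77% of all genes), and DESeq2 called 0 (0.0376% of all genes). The sex difference of the diet effect was tested directly as an interaction: 5 of 10 genes were called in liver (Hamp2, Fth1, Tfrc, Tfr2, Slc40a1), against 23.7% of all genes.

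**Figure D1:**
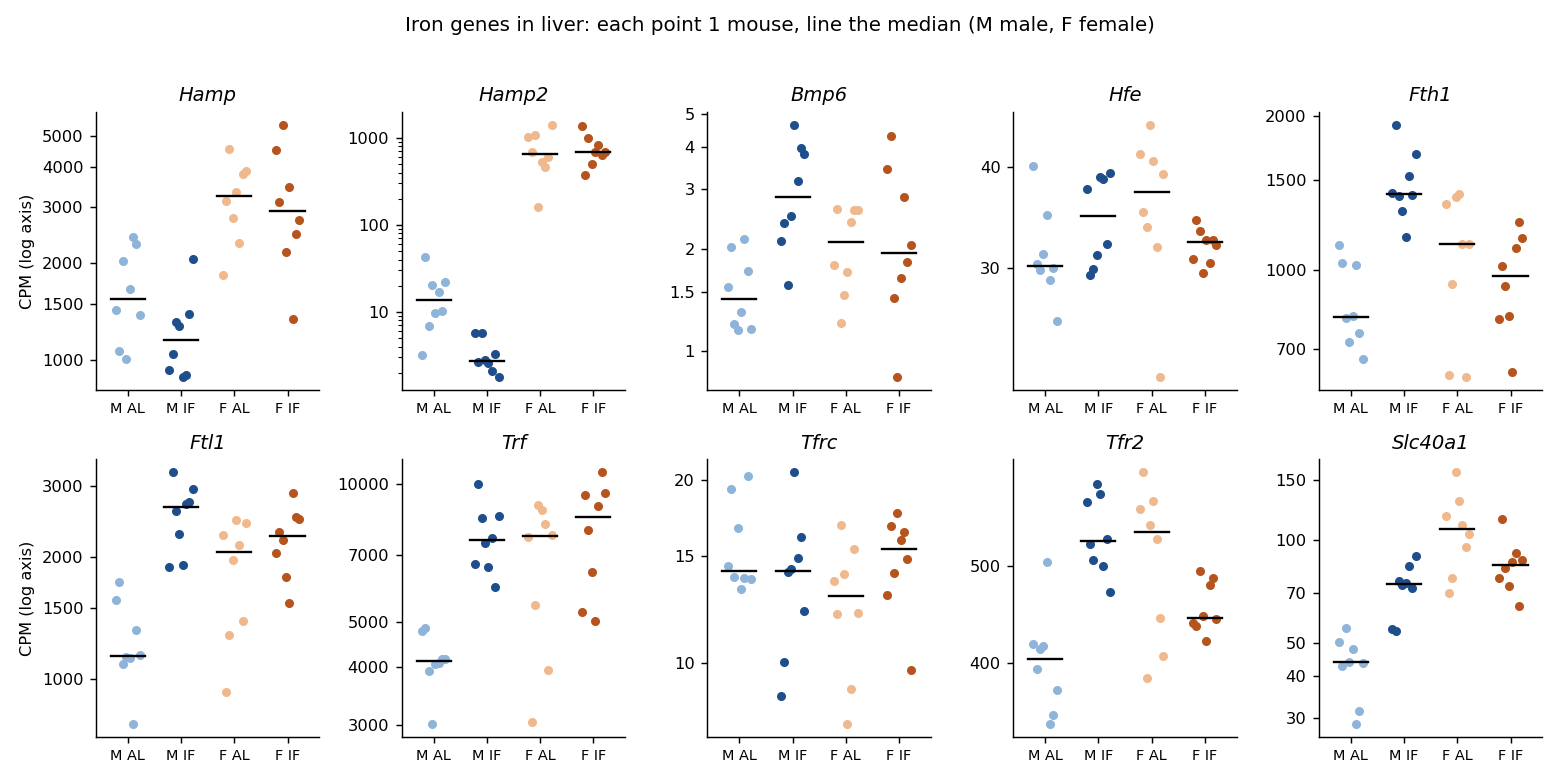
CPM of the 10 genes in each liver library on log axes, by sex (M, F) and diet (AL, IF); each point is 1 of 8 mice per group and the line is the group median. Male IF values of Fth1, Ftl1 and Trf sit above every male AL value, while the 2 female groups overlap in all 10 panels.

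In male muscle 4 of the 7 genes tested were called, against 23.0% of all genes: Trf, Bmp6 and Hfe were higher in IF mice (11.5% of all genes were) and Tfrc was lower (11.6% were). Hamp, Hamp2 and Tfr2 had too few counts there to be tested. In female muscle edgeR called 0 of 7, against 0.00653% of all genes in either direction, 0.00653% higher and 0% lower. An unadjusted p under 0.05 held for 2 of the 7 (Bmp6, Fth1) and 10.7% of all genes, and DESeq2 called 0 (0.594% of all genes). The number over all genes there, 1, was between 1 and 3 without 1 library, and 38 in 1 fit over both sexes. The interaction was called for 1 of 7 genes, Bmp6, against 14.2% of all genes.

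In male cortex edgeR called 0 of the 8 genes tested, against 7.21% of all genes, 3.79% higher and 3.43% lower. An unadjusted p under 0.05 held for 2 of the 8 (Trf, Slc40a1) and 23.8% of all genes, and DESeq2 called 1 of 8, Trf, and 12.2% of all genes, so both counts are near the share of all genes. In female cortex edgeR called 0 of 8, against 0.0109% of all genes, 0% higher and 0.0109% lower, with 1 of 8 (Trf) at an unadjusted p under 0.05, near the 11.2% of all genes, and 0 by DESeq2 (0.397% of all genes). The number over all genes there, 2, was between 0 and 254 without 1 library, the highest without AL replicate 2. The interaction was called for 1 of 8 genes, Trf, against 2.03% of all genes.

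Fed females and males were compared as well. The test called 4 of 10 genes in AL liver (22.3% of all genes), 4 of 7 in AL muscle (40.2%) and 3 of 8 in AL cortex (11.3%). The AL mice of this comparison are the same as those of the diet comparisons, so values from both are given side by side and not set against each other.

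**Figure D2:**
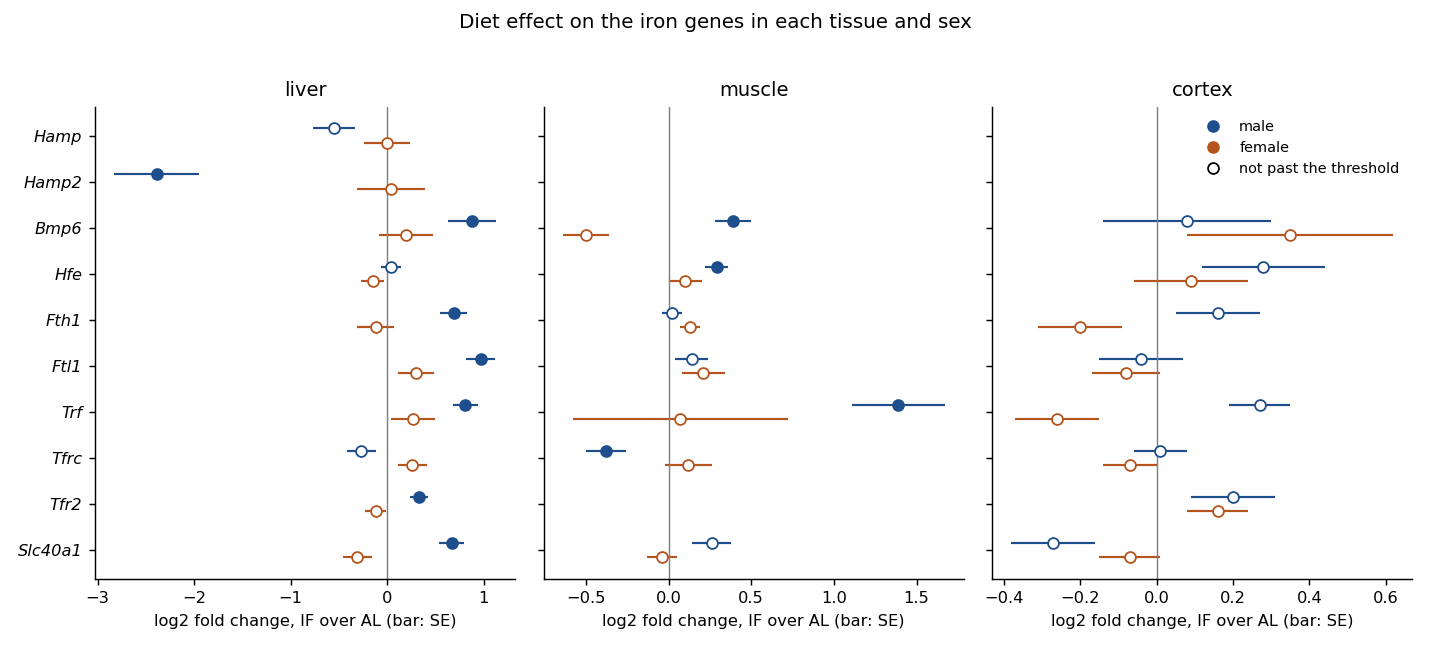
Log2 fold change of each tested gene, IF over AL, with its SE, in liver, muscle and cortex (axes differ in range), males in blue and females in orange; filled points have an adjusted p under 0.05. The filled points are 7 in male liver and 4 in male muscle, and all female points are open.

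Hepcidin itself ranged from 1008 to 2419 CPM in male AL livers (median 1547) and from 886 to 2070 in male IF livers (median 1159). The groups overlapped: 3 of 8 IF mice lay below every AL mouse, 1 IF mouse, replicate 8, lay above the AL median, and the other 7 were at or under 1396 CPM. That mouse also had the group's highest sums of Kupffer cell and macrophage genes (833 CPM, median 274) and of acute phase genes (673, median 173). The log2 fold change was -0.55 ± 0.22 (SE, n = 8 per diet, adjusted p = 0.0505), just outside the threshold. It passed under 6 of 11 alternatives, among them RLE size factors (-0.57, adjusted p = 0.0395), replicate 2 of both diets left out (-0.62, 0.0394), at least 10 counts in each library (-0.55, 0.0449) and a replicate block (-0.52, 0.0491). It also came inside when any 1 of 4 libraries was left out: -0.63 without AL replicate 2 (adjusted p = 0.0195), -0.63 without AL replicate 4 (0.0249), -0.61 without IF replicate 3 (0.0410) and -0.69 without IF replicate 8 (0.00852). Over all 16 fits that left out 1 library, the smallest change was -0.43, without AL replicate 6, and the highest adjusted p was 0.114. With the score of an endothelial marker list as a covariate, chosen after seeing the values, it was -0.04 (adjusted p = 0.952). The sums of that list did not overlap between the diets (AL 116 to 152 CPM, IF 157 to 338). Such a fit cannot well separate the score from diet.

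In females Hamp was higher in fed mice than in fed males: 1838 to 4550 CPM (median 3237), with 6 of 8 females above every male and a log2 difference of 0.77 ± 0.22 (n = 8 per sex, adjusted p = 0.0145). Female IF livers ran from 1343 to 5401 CPM (median 2913), overlapping with the fed females on both sides. The diet effect in females was -0.00 ± 0.24 (adjusted p = 1), and the interaction of 0.58 ± 0.34 was not called (adjusted p = 0.229).

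Hamp2, a second mouse hepcidin gene next to Hamp, showed the widest contrasts of the 10. Male AL livers held 3.16 to 42.5 CPM (median 13.7) and male IF livers 1.78 to 5.78 (median 2.69). All 8 IF mice lay below the AL median and 5 below every AL mouse, while the other 3 overlapped with the AL group. The log2 fold change was -2.39 ± 0.44 (adjusted p = 3.88e-04), the AL level being 5.24 times the IF level, and the call held under each of the 11 alternatives and without any 1 library. Of those 11, the unadjusted p under 0.05 cannot fail for a called gene.

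Female livers held far more Hamp2, 163 to 1416 CPM in AL mice (median 651) and 374 to 1362 in IF mice (median 690). Even the lowest fed female was above the highest fed male, and the difference was 5.37 ± 0.58 in log2 units, or 41.38-fold (adjusted p = 6.58e-06). Diet left no called difference among females, at a log2 fold change of 0.04 ± 0.35 (adjusted p = 0.993), and the interaction was called at 2.46 ± 0.59 (adjusted p = 0.00264).

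The 2 hepcidin genes are close in sequence, so reads of one may be counted to the other. The transcripts marked as canonical for them in the reference annotation share 93.2% of aligned bases, with a longest identical run of 87 bases. How the authors treated reads that map to both places is not stated. In fed males a Hamp2 median of 13.7 CPM stood beside 1547 of Hamp, and in fed females 651 beside 3237. How far reads were assigned to the wrong one was not tested.

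The stretch before the RefSeq start of each hepcidin gene is printed because BMP-SMAD and STAT3 signals are known to act on Hamp through it. The 250 bases before the RefSeq start (table of build GRCm38.p6, each window found once in GRCm39) lie on the minus strand at chr7:30643455-30643704 for Hamp and chr7:30623607-30623856 for Hamp2. Capitals mark GGCGCC, the core of a BMP-responsive element, the 6 bases of Hamp2 aligned with it, and TTCNNNGAA, the STAT pattern; both patterns read the same on either strand, and they do not overlap.
Hamp: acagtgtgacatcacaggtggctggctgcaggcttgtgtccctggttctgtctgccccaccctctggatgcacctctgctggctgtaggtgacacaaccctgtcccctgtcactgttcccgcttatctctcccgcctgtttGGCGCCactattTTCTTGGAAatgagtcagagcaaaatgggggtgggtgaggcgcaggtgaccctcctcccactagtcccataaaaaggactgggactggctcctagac
Hamp2: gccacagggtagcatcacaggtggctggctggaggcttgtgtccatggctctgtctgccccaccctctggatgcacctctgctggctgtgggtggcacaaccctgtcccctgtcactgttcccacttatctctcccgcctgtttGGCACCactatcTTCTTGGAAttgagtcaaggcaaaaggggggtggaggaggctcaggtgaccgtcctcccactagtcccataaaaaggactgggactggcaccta

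The 2 windows were 91.9% identical over 247 aligned bases, with 20 substitutions. One of these, G145A, falls inside GGCGCC, with positions counted from 1 at the 5′ end of the printed Hamp window. The Hamp window holds GGCGCC at positions 142 to 147 and TTCTTGGAA at 154 to 162, and the Hamp2 window holds TTCTTGGAA at its own positions 157 to 165. Across the table GGCGCC occurs in 9.59% of 32851 promoter windows of this length and TTCNNNGAA in 7.02%. Of the 10 iron genes 8 are in the table, and apart from the hepcidin genes 1 of 2 Tfrc windows holds GGCGCC. A match is a run of letters and not a shown binding site. The newer reference annotation starts Hamp further upstream than RefSeq and the count table do. In the count table Hamp2 spans 30621797 to 30624106, so its whole printed window lies inside the gene as counted.

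Mice of 1 group differed in Hamp, and 6 genes were set beside it across the 32 livers, with the mean of each sex and diet removed: Bmp6, the SMAD targets Id1 and Smad7, the acute phase gene Saa1, Tfr2 and the haem synthesis gene Alas2. None of the 6 passed a permutation test after Benjamini-Hochberg adjustment. The closest was Tfr2, with r = -0.40 (p = 0.0158, adjusted p = 0.0951), rho = -0.45 (p = 0.0118, adjusted p = 0.0708) and r = -0.32 without the 2 farthest livers. Id1 gave r = 0.40 (p = 0.0348, adjusted p = 0.104), rho = 0.39 (p = 0.0369, adjusted p = 0.111) and r = 0.44 without 2.

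Within females (n = 16), rho of Hamp was 0.73 with Smad7 (permutation p = 0.00387, adjusted p = 0.0232) and 0.62 with Id1 (permutation p = 0.0162, adjusted p = 0.0487), with r of 0.57 and 0.54 (adjusted p = 0.143 for both). Within males (n = 16) rho was -0.08 and 0.21 (permutation p = 0.785 and 0.447, adjusted p = 0.785 and 0.660). The difference between the sexes in these relations was not tested. Bmp6 gave r = 0.06 over all livers (adjusted p = 0.770), rho = 0.07 (adjusted p = 0.884).

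Bmp6, the ligand, went up in male IF liver while the hepcidin genes did not. It lay between 1.16 and 2.15 CPM in male AL livers (median 1.43) and between 1.56 and 4.65 in male IF livers (median 2.85). Every IF mouse was above the AL median and 6 of 8 above every AL mouse, with overlap from the other 2. The log2 fold change was 0.88 ± 0.25 (adjusted p = 0.00613). In female liver the groups overlapped at both ends (AL 1.21 to 2.63 CPM, IF 0.839 to 4.30), the effect was 0.20 ± 0.28 (adjusted p = 0.938), and the interaction of -0.65 ± 0.37 was not called (adjusted p = 0.220).

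Endothelial genes were read beside Bmp6. The 6 of the list (Pecam1, Cdh5, Stab2, Lyve1, Kdr, Tie1), none at 0, summed to 116 to 152 CPM in male AL livers (median 126) and 157 to 338 in male IF livers (median 194), and 2 of the 6 were called higher, beside 23.5% of all genes. Stab2 was the most abundant, at a median of 69.2 and 111 CPM. With the endothelial score as a covariate Bmp6 was at 0.77 (adjusted p = 0.159), and with the erythroid score at 0.76 (adjusted p = 0.0754). Since the endothelial sums did not overlap between the diets, the first of these fits cannot well separate that score from diet. Over 32 livers, with group means removed, Bmp6 and the endothelial score had r = 0.56 (permutation p = 0.00509, adjusted p = 0.00509 over 4 relations chosen after the values were seen), rho = 0.53 (permutation p = 0.00464, adjusted p = 0.00464) and r = 0.66 without 2 livers. In males alone r was 0.26 (permutation p = 0.380) and in females alone 0.74 (permutation p = 0.00481). From bulk RNA, a larger number of cells of a type and more RNA per cell cannot be told apart.

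In muscle Bmp6 rose in male IF mice, and its diet effect differed between the sexes. Male AL muscles held 5.76 to 9.12 CPM (median 6.77) and male IF muscles 8.32 to 13.2 (median 10.1). All 8 IF mice were above the AL median and 5 above every AL mouse, at a log2 fold change of 0.39 ± 0.11 (adjusted p = 0.0146). Female AL muscles held 6.90 to 12 CPM (median 9.43) and female IF muscles 4.02 to 7.86 (median 6.52).

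There, all 8 IF mice were below the AL median and 4 below every AL mouse, but the effect of -0.50 ± 0.14 did not pass over all genes (adjusted p = 0.250). The difference between the sexes was -0.88 ± 0.18 (adjusted p = 0.00117), called under all 6 alternatives. Endothelial genes in muscle summed to medians of 184 CPM in male AL, 186 in male IF, 162 in female AL and 130 in female IF mice. Bmp6 and that score had r = 0.65 over 32 muscles (permutation p = 2.80e-04, adjusted p = 3.73e-04), rho = 0.63 (permutation p = 3.70e-04, adjusted p = 4.93e-04) and r = 0.51 without 2. Within males r was 0.53 (permutation p = 0.0451, adjusted p = 0.0602), and within females 0.73 (permutation p = 0.00272, adjusted p = 0.00363). The part of these cells in the sex difference was not tested. Cortex Bmp6 ranged from 4.61 to 18.3 CPM and was called in no comparison.

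Hfe, which binds transferrin receptor 1 and takes part in iron sensing, was called for diet in muscle. Male AL muscles held 23.9 to 29.7 CPM (median 25.4) and male IF muscles 28.9 to 38.3 (median 33.5). The groups met only at the edge, with 6 of 8 IF mice above every AL mouse, and the log2 fold change was 0.29 ± 0.07 (adjusted p = 0.00515). The call held under all alternatives, the unadjusted p that cannot fail among them, and without any 1 library. Female muscles overlapped throughout (AL 29.1 to 45.1 CPM, IF 31.5 to 51.2; 0.10 ± 0.10, adjusted p = 0.770), and the interaction was -0.17 ± 0.13 (adjusted p = 0.417). Fed females were above fed males by 0.40 ± 0.08 (adjusted p = 9.30e-04). In liver Hfe ranged from 21.9 to 45.2 CPM, in cortex from 2.69 to 7.96, and no comparison there called it.

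The wider BMP-SMAD list of 16 genes (a ligand, receptors, co-receptors and their partners, transducers, targets and an antagonist) had 10 of 15 tested genes called in male liver (44.6% of all genes were), 7 higher (23.5%) and 3 lower (21.1%), with a median log2 fold change of 0.19 beside 0.06 for all genes. The target Id1 was at 4.80 to 12.9 CPM in AL and 9.23 to 46.0 in IF livers, with overlap (1.44 ± 0.29, adjusted p = 5.21e-04). The feedback gene Atoh8 was at 23.9 to 54.3 and 67.2 to 132, without overlap (1.18 ± 0.14, adjusted p = 2.10e-07). Of those lower, the receptor Acvr1 fell from 9.53 to 12.5 CPM to 4.34 to 8.67 (-0.75 ± 0.14, adjusted p = 1.51e-04). The co-receptor gene Hjv was lower as well, at 203 to 306 and 118 to 225 CPM, with overlap (-0.73 ± 0.12, adjusted p = 2.48e-05).

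None of the 15 tested genes of that list was called by edgeR in female liver (0% of all genes), and the interaction called 6 (23.7% of all genes), with 1 of 15 in muscle (14.2%) and 1 of 16 in cortex (2.03%). Fed females had more Id1 (1.53 ± 0.21, adjusted p = 1.66e-05) and Smad7 (0.89 ± 0.14, adjusted p = 5.82e-05) than fed males and less of the co-receptor hemojuvelin, Hjv (-0.83 ± 0.17, adjusted p = 7.81e-04), with 6 of 15 called (22.3% of all genes). In muscle diet called 3 of 15 in males (23.0% of all genes), among them Atoh8 (0.66 ± 0.13, adjusted p = 0.00112), and Hjv, whose call at -0.16 ± 0.06 was lost in 14 of 16 fits that left out 1 library. In male cortex 3 of 16 were called (7.21% of all genes), the receptors Acvr2a (-0.46 ± 0.10), Bmpr1a (-0.26 ± 0.06) and Bmpr2 (-0.23 ± 0.06), and all 3 calls were lost with the mismatched library kept, with a replicate block or with an oligodendrocyte covariate. The sex comparison called 8 of 15 in AL muscle (40.2% of all genes) and 6 of 16 in AL cortex (11.3%), where Hjv was higher in females (1.48 ± 0.22, adjusted p = 4.86e-04).

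Both ferritin chains rose in male IF liver, with no overlap between the diets in CPM. Fth1, the chain that oxidises iron for storage, was at 667 to 1115 CPM in AL (median 807) and 1160 to 1921 in IF livers (median 1404). All 8 IF mice were above all AL mice in CPM, at a log2 fold change of 0.69 ± 0.14 (adjusted p = 2.09e-04). The TMM factors within liver were 0.9468 for the highest AL mouse, replicate 1, and 1.095 for the lowest IF mouse, replicate 5. Divided by these factors the 2 mice changed order, so the diets overlapped for Fth1 on that scale. Ftl1, which helps the core form, was at 772 to 1734 CPM (median 1141) and 1893 to 3249 (median 2655), again with 8 of 8 above. Its log2 fold change was 0.97 ± 0.15 (adjusted p = 1.54e-05). Both calls held under each of 11 alternatives, the unadjusted p that cannot fail among them, and without any 1 library.

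Female livers overlapped for both chains. Fth1 was at 616 to 1404 CPM in AL and 629 to 1240 in IF mice (-0.12 ± 0.19, adjusted p = 0.949), and the sexes differed in the effect by -0.77 ± 0.24 (adjusted p = 0.0186), though not with the erythroid score as a covariate (-0.62, adjusted p = 0.0734). Ftl1 was at 927 to 2475 CPM and 1540 to 2888 (0.30 ± 0.19, adjusted p = 0.869), with an interaction of -0.64 ± 0.26 (adjusted p = 0.0654) that passed by DESeq2 (adjusted p = 0.0423) and without replicate 2 (adjusted p = 0.0271). Female AL replicate 2, with the lowest Ftl1 and Trf of its group, also had the group's highest share of mitochondrially encoded reads, 23.8%.

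Muscle ferritin differed by sex in fed mice. Male AL muscles held 1767 to 2126 CPM of Fth1 (median 2034) and female AL muscles 1502 to 1900 (median 1742). None of the 8 females exceeded the male median and 4 were below every male, with a log2 difference of -0.32 ± 0.07 (adjusted p = 6.53e-04). For Ftl1 the values were 117 to 169 CPM in males (median 147) and 76.9 to 143 in females (median 96.9), with 6 of 8 females below every male (-0.64 ± 0.12, adjusted p = 4.44e-04). Diet called neither chain in muscle: Fth1 had log2 fold changes of 0.02 ± 0.06 in males and 0.13 ± 0.06 in females, and Ftl1 of 0.14 ± 0.10 and 0.21 ± 0.13. In cortex Fth1 ranged from 2122 to 3923 CPM and Ftl1 from 170 to 280, with no call in any comparison.

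Ferritin counts could be blurred by copies. A gene named Ftl1-ps1 matches Ftl1 at 99.5% of aligned bases with an identical run of 524, and the 3 annotated light chain copies together held 0.864 to 2.59% as many counts as Ftl1 in each library. The 12 heavy chain copies held at most 0.0395% of Fth1.

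The messages of 4 of these genes carry iron-responsive element patterns, printed because they join the storage, import and export genes to 1 form of control after transcription: block of translation, which counts do not measure, or protection of the message, which can change them. The pattern searched was C, 5 bases, the loop CAGTGN, and 5 bases that pair with the first 5, in reference transcripts of GRCm39, on the transcript strand. Capitals mark the bulged C and the loop. The sites lie in the 5′ ends of Fth1 (chr19:9960097-9960123, plus strand), Ftl1 (chr7:45109204-45109230, minus strand) and Slc40a1 (chr1:45964626-45964652, minus strand), and 4 lie in the 3′ end of Tfrc, of which the first is shown (chr16:32450038-32450064, plus strand).
Fth1: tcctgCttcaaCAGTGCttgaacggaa
Ftl1: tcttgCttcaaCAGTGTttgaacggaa
Slc40a1: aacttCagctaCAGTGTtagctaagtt
Tfrc: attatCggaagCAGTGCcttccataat

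The pattern occurred in 0.117% of 20510 reference 5′ untranslated regions and 0.600% of 20658 3′ regions. The other 6 of the 10 genes had none in either. In male IF liver the 3 genes with a 5′ site were called higher, as were 3 of the 6 without a site (Trf, Tfr2, Bmp6) and 23.5% of all genes, and Tfrc, with 3′ sites, was not called. A pattern found by letters is a description of the sequence alone.

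Transferrin, the plasma carrier made by hepatocytes, rose in male IF liver as well. It was at 3005 to 4852 CPM in AL (median 4123) and 5980 to 9981 in IF livers (median 7544). The groups were separate, with 8 of 8 IF mice above all AL mice, and the log2 fold change was 0.81 ± 0.13 (adjusted p = 2.10e-05). Female livers overlapped (AL 3040 to 8980 CPM, IF 5033 to 10615; 0.27 ± 0.23, adjusted p = 0.882), and the interaction was not called (-0.50 ± 0.27, adjusted p = 0.182). Fed females were above fed males by 0.54 ± 0.20 without passing (adjusted p = 0.0512), and past the threshold under 4 of 6 alternatives.

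In muscle Trf was low and uneven. Male AL muscles held 16.3 to 34.7 CPM (median 22.4) and male IF muscles 23.9 to 109 (median 62.1). All but 1 of the 8 IF mice were above every AL mouse, at a log2 fold change of 1.39 ± 0.28 (adjusted p = 0.00285). Female muscles spread from 15.5 to 143 CPM in AL and from 7.31 to 183 in IF mice, with full overlap (0.07 ± 0.65, adjusted p = 0.984) and an interaction of -1.30 ± 0.71 (adjusted p = 0.240). Fed females were above fed males by 1.26 ± 0.44 (adjusted p = 0.0339), a call lost without replicate 2 (0.99, adjusted p = 0.0867), with the erythroid (1.15, adjusted p = 0.0876) and with the adipocyte covariate (0.64, adjusted p = 0.238).

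Adipocyte genes rose along with muscle Trf. The 4 listed (Adipoq, Plin1, Cidec, Fabp4), none at 0, summed to 143 to 503 CPM in male AL (median 248) and 332 to 2486 in male IF muscles (median 972), with Fabp4 the most abundant at medians of 218 and 800, and 4 of 4 were called higher (11.5% of all genes). Over 32 muscles, with group means removed, Trf and their score had r = 0.77 and rho = 0.78 (permutation p = 1e-05 for both, the smallest that 100000 permutations can give, adjusted p = 2.00e-05), and r = 0.69 without 2. Within males r was 0.85 (permutation p = 7.00e-05) and within females 0.85 (permutation p = 1.10e-04). With that score as a covariate, chosen after seeing the values, the male diet effect on Trf was 0.29 (adjusted p = 0.373). In 1 fit over both sexes it stayed at 1.39 with an adjusted p of 0.0555.

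**Figure D3:**
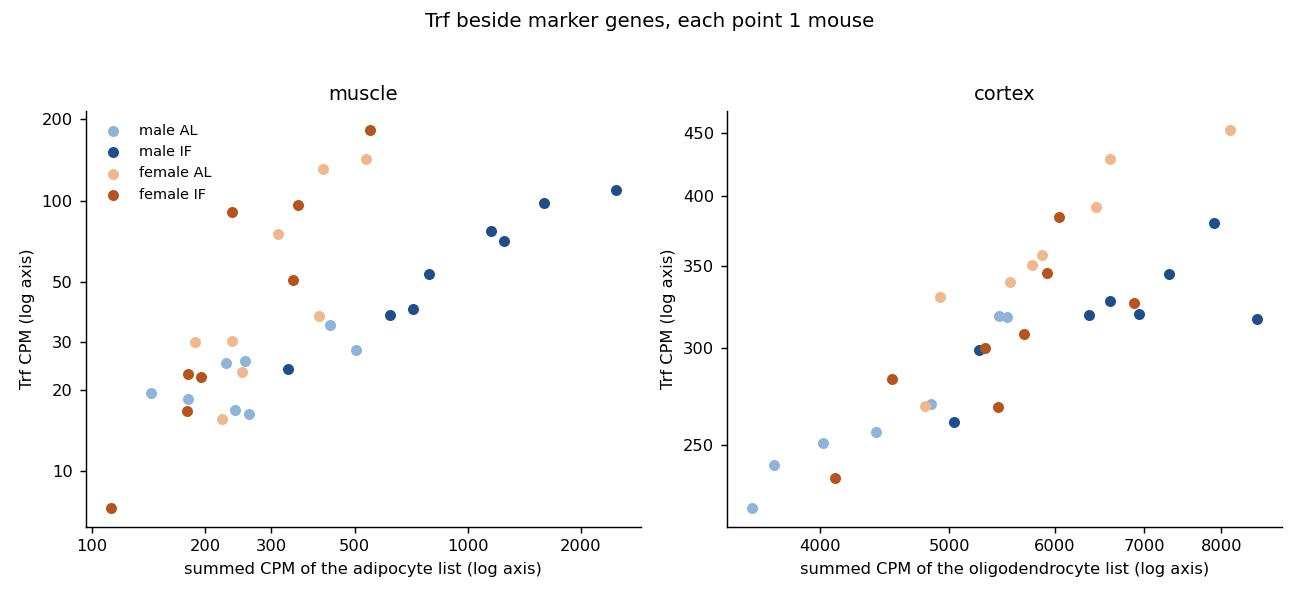
Trf CPM against the summed CPM of the adipocyte list in muscle and of the oligodendrocyte list in cortex, log axes, each point 1 mouse coloured by sex and diet. Trf goes up with the marker sum in both tissues, with male IF muscles reaching 2486 CPM of adipocyte genes.

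Cortex Trf, known to be made by oligodendrocytes, followed their genes closely. Male AL cortex held 222 to 319 CPM (median 256, n = 7) and male IF cortex 261 to 380 (median 320, n = 8). All 8 IF mice were above the AL median and 5 above every AL mouse, at a log2 fold change of 0.27 ± 0.08 (adjusted p = 0.0519). That came under the threshold without any 1 of 4 libraries, at 0.32 without AL replicate 4 (adjusted p = 0.0273), 0.31 without AL replicate 7 (0.0228), 0.31 without IF replicate 2 (0.0308) and 0.28 without IF replicate 4 (0.0411). It also passed with RLE size factors (adjusted p = 0.0491), by DESeq2 (0.0202) and under 2 other filters on low counts (0.0419 and 0.0402), and with the mismatched library kept it was 0.23 (0.136).

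In female cortex the values ran the other way, from 269 to 453 CPM in AL (median 354) and 235 to 385 in IF mice (median 304). With overlap on both sides, the effect was -0.26 ± 0.11 (adjusted p = 0.406), and the sexes differed by -0.53 ± 0.14 (adjusted p = 0.0418). The 5 oligodendrocyte genes (Mbp, Mog, Mag, Mobp, Mal), none at 0, summed to medians of 4407 CPM in male AL (3555 to 5528), 6770 in male IF (5040 to 8513), 5820 in female AL (4791 to 8124) and 5562 in female IF cortex (4103 to 6880), with Mbp the most abundant. In males all 5 were called higher in IF mice (3.79% of all genes). Trf and their score had r = 0.92 and rho = 0.95 over 31 cortex libraries (permutation p = 1e-05 for both, adjusted p = 2.00e-05), and r = 0.91 without 2. Within males r was 0.91 (permutation p = 2.00e-05) and within females 0.94 (permutation p = 1e-05). With the score as a covariate the diet effect in males was -0.08 (adjusted p = 0.898) and the sex difference of the effect 0.04 (adjusted p = 0.977).

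Fed females also had more cortex Trf (0.45 ± 0.11, adjusted p = 0.0115), Tfr2 (0.31 ± 0.09, adjusted p = 0.0310) and Tfrc (0.22 ± 0.06, adjusted p = 0.0270) than fed males. Between 5 and 7 of the 8 females were above every male for these 3. None of the 3 passed with the oligodendrocyte score as a covariate: Trf was at 0.02 (adjusted p = 0.967), Tfr2 at 0.31 (0.347) and Tfrc at 0.25 (0.269). The differences of Tfr2 and Tfrc were thus no smaller with it. Over all genes the share called went from 11.3% to 0.552%.

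Tfrc moved down in male IF muscle. It was at 64.1 to 92.1 CPM in AL (median 79.4) and 44.5 to 76.6 in IF muscles (median 68.8). None of the 8 IF mice was above the AL median and 3 were below every AL mouse, at a log2 fold change of -0.38 ± 0.12 (adjusted p = 0.0242). The call was lost without AL replicate 1 (-0.35, adjusted p = 0.0506), without replicate 2 of both diets (-0.32, 0.0769), with the adipocyte covariate (-0.22, 0.349), with no filter on low counts (-0.38, 0.0716) and with a replicate block (-0.40, 0.0806). The female effect was 0.12 ± 0.14 (adjusted p = 0.795) and the interaction 0.52 ± 0.19 (adjusted p = 0.0708).

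In liver Tfrc stayed low, at 13.2 to 20.3 CPM in male AL (median 14.1) and 8.83 to 20.6 in male IF mice (median 14.2). The IF range enclosed the AL range, with 3 IF mice below and 1 above every AL mouse, and the effect of -0.27 ± 0.15 was not called (adjusted p = 0.144), though it passed without IF replicate 5 (-0.39, adjusted p = 0.0354). Female values were 7.92 to 16.9 and 9.72 to 17.6 CPM (0.26 ± 0.15, adjusted p = 0.850). The interaction of 0.57 ± 0.22 was called at an adjusted p of 0.0496 and lost under 5 of 6 alternatives, DESeq2 being the exception. Fed females were below fed males (-0.48 ± 0.15, adjusted p = 0.0248), not past the threshold without replicate 2 (-0.44, adjusted p = 0.0538).

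Tfr2, the hepatocyte receptor that senses transferrin-bound iron, was at 347 to 505 CPM in male AL (median 403) and 471 to 604 in male IF livers (median 530). With 6 of 8 IF mice above every AL mouse, the overlap came from AL replicate 5, at 505 CPM where the next was 417. The log2 fold change was 0.33 ± 0.09 (adjusted p = 0.00517). Female livers held 386 to 621 CPM in AL and 420 to 494 in IF mice, no IF mouse being above the AL median (-0.12 ± 0.11, adjusted p = 0.891). The interaction was -0.42 ± 0.14 (adjusted p = 0.0248), lost without replicate 2 (-0.32, adjusted p = 0.0965) and with the endothelial covariate (-0.46, adjusted p = 0.0553).

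Ferroportin, the exporter on which hepcidin acts, rose in male IF liver. It was at 28.8 to 55.1 CPM in AL (median 43.8) and 54.2 to 90.1 in IF livers (median 74.5). Of the 8 IF mice, 6 were above every AL mouse and the other 2 overlapped with the AL group. The log2 fold change was 0.67 ± 0.13 (adjusted p = 1.69e-04). It was called under all 11 alternatives, the unadjusted p that cannot fail among them, and without any 1 library. Kupffer cells and macrophages are rich in this exporter, and their 8 genes (most abundant Clec4f, none at 0) summed to 175 to 307 CPM in male AL (median 196) and 212 to 833 in male IF livers (median 274), 3 of 8 called higher (23.5% of all genes). Their part in the result was not tested.

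In females ferroportin was at 69.8 to 159 CPM in AL (median 108) and 64.1 to 115 in IF livers (median 84.5). The ranges overlapped, with 1 IF mouse above the AL median, and the effect was -0.31 ± 0.15 (adjusted p = 0.850). The 2 sexes differed by -0.95 ± 0.20 (adjusted p = 4.15e-04), under all 6 alternatives as well. All 8 fed females were above all fed males, by 1.16 ± 0.15 (adjusted p = 5.29e-06), and their Kupffer cell and macrophage genes summed to 285 to 1280 CPM (median 331), with 5 of 8 called higher than in males (10.9% of all genes).

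Muscle Slc40a1 was at 21.1 to 30.3 CPM in male AL (median 26.5) and 18.4 to 42.8 in male IF mice (median 33). IF replicate 1 was the lowest of all and the other 7 were above every AL mouse, so that the effect was 0.26 ± 0.12 (adjusted p = 0.141) with it and 0.34 (adjusted p = 0.00864) without it. In male cortex it was at 6.82 to 8.25 CPM in AL and 4.57 to 7.79 in IF mice, 6 of 8 below every AL mouse, and not called (-0.27 ± 0.11, adjusted p = 0.130).

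**Figure D4:**
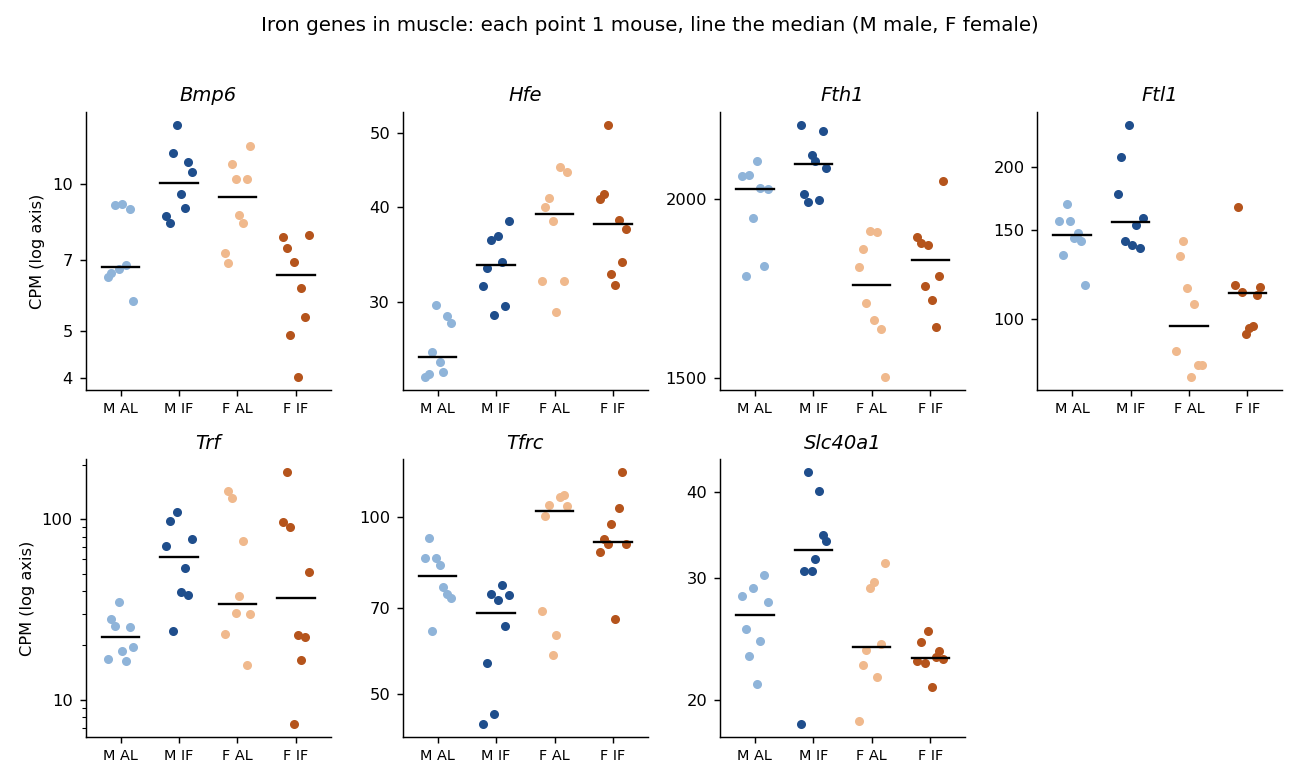
CPM of the 7 tested genes in each muscle library on log axes, by sex and diet, each point 1 of 8 mice and the line the median. Bmp6 is higher in male IF than in male AL mice, the female difference was not called, and Trf spreads from 7.31 to 183 CPM in females.

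Other measures moved with diet in male liver, beside the 7 called genes. Mitochondrially encoded genes took 14.5 to 25.1% of the counts in male AL livers (median 20.6) and 8.75 to 13.9% in male IF livers (median 10.7), without overlap, and with those genes left out 8 of the 10 iron genes were called (44.6% of all 16139 genes tested), Hamp among them (-0.58, adjusted p = 0.0369). The erythroid list (most abundant Hba-a1 and Hbb-bs, none at 0) summed to 363 to 957 CPM in AL (median 570) and 668 to 6884 in IF livers (median 2072), 4 of 6 tested called higher (23.5% of all genes). With its score as a covariate 6 of 10 were called, as the number over all genes went from 7234 to 4885 (30.1%), and with the endothelial score 6, as it went to 4016 (24.8%), each time without Bmp6. Endothelial sums did not overlap between the diets, so the fit with that score cannot well separate it from diet. Acute phase genes (Saa1, Saa2, Saa3, Orm2, Lcn2, Fgl1, none at 0) summed to 118 to 289 CPM in AL (median 148) and 125 to 673 in IF livers (median 173), 4 of 6 called higher (23.5% of all genes) and 1 lower (21.1%). Their part was not tested.

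The clock output gene Dbp, added after its values were seen, differed between the series of mice. Liver Dbp was at 1.33 to 27.3 CPM in male AL, 20.7 to 37 in male IF, 193 to 297 in female AL and 194 to 312 in female IF mice. Female values were above all male values there and in muscle. In cortex male IF mice (90.9 to 133) overlapped with both female AL (106 to 139) and female IF mice (119 to 154). Within males, cortex Dbp was 45.2 to 84.8 CPM in AL mice, without overlap with the IF mice. The study's methods give morning hours of collection for the males, and the labels give none for the females. Its part in the sex differences was not tested.

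Other iron genes were read in 4 lists, and beside each count stands the share of all genes called in the same comparison. Of 11 genes for iron uptake, export and oxidation, 4 of 10 tested were called in male liver (44.6% of all genes), 2 higher (23.5%) and 2 lower (21.1%; median log2 fold change -0.21, beside 0.06 for all genes). Ceruloplasmin (Cp), the ferroxidase of plasma, fell from 544 to 679 CPM to 277 to 445 (-0.78 ± 0.11, adjusted p = 3.66e-06), and the endosomal ferrireductase Steap3 from 14.9 to 22 CPM to 6.84 to 14.1 (-0.96 ± 0.15, adjusted p = 9.48e-06), both without overlap. Steap3 fell in male muscle as well (-0.51 ± 0.08, adjusted p = 1.06e-04), where 2 of 10 were called (23.0% of all genes). In male cortex 1 of 10 was called (7.21% of all genes), the importer Slc11a2 (0.24 ± 0.05, adjusted p = 0.0117), a call lost with the mismatched library kept, with a replicate block and with the oligodendrocyte covariate.

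For iron sensing and ferritin turnover, 3 of 6 were called in male liver (44.6% of all genes; median -0.13): the chaperone Pcbp2 (0.95 ± 0.11, adjusted p = 1.91e-07), Ireb2, an iron regulatory protein (-0.62 ± 0.11, adjusted p = 8.50e-05), and Ncoa4, which carries ferritin to lysosomes (0.47 ± 0.16, adjusted p = 0.0189). Ireb2 did not pass with the endothelial covariate, nor Ncoa4 with no filter on low counts or without IF replicate 3 or 5. None of 6 was called by edgeR in male muscle (23.0% of all genes) and 1 of 6 in male cortex (7.21%), Pcbp2 (-0.23 ± 0.06, adjusted p = 0.0196), lost under 4 alternatives, the oligodendrocyte covariate among them.

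Haem genes gave 6 of 11 called in male liver (44.6% of all genes), 5 higher (23.5%) and 1 lower (21.1%; median 0.37). Hmox1, which opens the haem ring and frees its iron, was at 4.78 to 11.5 CPM in AL and 15.2 to 38.3 in IF livers (1.40 ± 0.19, adjusted p = 3.42e-06), and its relative Hmox2 at 3.03 to 10.2 and 11.3 to 26.1 (1.44 ± 0.18, adjusted p = 7.28e-07), neither with overlap. In male muscle Hmox1 was higher (0.41 ± 0.11, adjusted p = 0.00813; not with the adipocyte covariate) and Hmox2 lower (-0.26 ± 0.07, adjusted p = 0.00853), 2 of 10 called (23.0% of all genes), and in male cortex edgeR called 0 of 11 (7.21%).

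Of 14 genes for mitochondrial iron and iron-sulphur clusters, 8 of 13 tested were called in male liver (44.6% of all genes), 4 higher (23.5%) and 4 lower (21.1%; median -0.17). The assembly genes Glrx5 (36.6 to 71.3 CPM in AL, 161 to 279 in IF, 1.83 ± 0.15, adjusted p = 6.67e-10) and Hspa9 (69.2 to 118 and 270 to 381, 1.71 ± 0.12, adjusted p = 9.84e-11) were among the higher, without overlap. Male muscle had 3 of 13 called (23.0% of all genes), Hspa9 again higher (0.27 ± 0.06, adjusted p = 0.00304), and in male cortex edgeR called 0 of 13 (7.21%). In female mice diet called 0 genes of these 4 lists in each tissue by edgeR, against 0, 1 and 2 of all genes in liver, muscle and cortex. The interaction called, in the order of the lists, 2 of 11, 2 of 6, 3 of 11 and 6 of 13 in liver (23.7% of all genes), 2 of 11, 0 of 6, 1 of 11 and 3 of 13 in muscle (14.2%), and 0 of 10, 1 of 6, 0 of 11 and 0 of 13 in cortex (2.03%).

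Between fed females and males, the 4 lists gave 5 of 10, 1 of 6, 3 of 11 and 5 of 13 called in liver (22.3% of all genes), in the order above, 3 of 10, 3 of 6, 4 of 10 and 8 of 13 in muscle (40.2%), and 0 of 10, 0 of 6, 0 of 11 and 0 of 13 in cortex (11.3%). The ferritin receptor Scara5 stood out in liver, at 1.49 to 6.27 CPM in fed males and at most 0.370 in fed females. The mitochondrial importer Slc25a28 did so in muscle, at 52.1 to 72.1 and 33.4 to 43.0 CPM (-0.81 ± 0.08, adjusted p = 3.10e-07).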

How the data were processed

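Poly-A RNA libraries of liver, muscle and cortex were sequenced by the authors, who used HISAT2 for alignment on the GRCm39 genome and featureCounts for gene totals; the deposited values are raw read counts (unit: counts), beside a gene length in bases per the file headers. The 10 genes and all lists were chosen with earlier results of these data known. CPM used the total count, and medians and ranges are over mice. Tests used edgeR 4.0.16 in R 4.3.3 (TMM, its expression filter with a minimum count of 10 and total of 15, robust quasi-likelihood test) per tissue and sex, with Benjamini-Hochberg adjustment over all genes at 0.05; DESeq2 1.42.0 was the other tool. Errors of log2 fold changes are SE. Correlations used log2 CPM (prior count 2) less group means and 100000 two-sided permutations within groups. List genes named are up to 3 per list and comparison with the largest change, called, at a mean of at least 1 CPM. Hjv in male liver was named in addition to these. Replicate numbers were treated as unpaired, since AL and IF mice of 1 number were no more alike than others. Depth of 26097314 to 49838004 counts covers counting error only. Alternatives were another normalization, filters, covariates, a replicate block, 1 fit over both sexes, an unadjusted p and left-out libraries. A called gene passes the unadjusted p in any case, so that alternative can only add calls. The tests were tested on simulated data. There a limit on false calls, 10% of the calls, was set for edgeR only, and DESeq2 went past it in 1 run. Figures used matplotlib 3.10.9.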

Additional observations from a re-analysis of the deposited data

Results flagged for a closer look

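Among 100 groups of 7 or 8 mice, 4 held 1 value far above the rest, where chance would give about 1 in 20: Hamp in male IF liver replicate 8 (2070 CPM, next 1396, median 1159), Tfr2 in male AL liver replicate 5 (505, next 417), Ftl1 in female IF muscle replicate 2 (167, next 117) and Ftl1 in female IF cortex replicate 4 (255, next 211). That cortex library also had its group's highest choroid plexus sum (115 CPM, median 3.68), lowest neuron sum (4923, median 6298), lowest median correlation with its group (0.9707) and highest Bmp6 (18.3) and Hfe (7.96).

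The diet effect differed between the sexes by the interaction test in 7 of 25 cases, given as female minus male log2 fold change. In liver it was 5 of 10, beside 23.7% of all genes: Hamp2 (2.46), Fth1 (-0.77), Tfrc (0.57), Tfr2 (-0.42) and Slc40a1 (-0.95). In muscle it was 1 of 7, Bmp6 (-0.88), beside 14.2% of all genes. In cortex it was 1 of 8, Trf (-0.53), beside 2.03%. Of 6 alternatives, 1 kept the call of Tfrc, 4 that of Tfr2, and 5 those of Fth1 and cortex Trf. All 6 kept those of Hamp2, Slc40a1 and muscle Bmp6. Sex and the series of mice cannot be told apart.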

How the results depend on the processing

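Of 1372 gene results under other settings 1280 kept their side of the threshold, 63 lost and 28 gained it, and 1 called result changed sign and lost its call: the sex difference of the diet effect on cortex Trf became 0.04 with the oligodendrocyte covariate. With 1 library left out, 1232 of 1267 kept their side, 25 lost and 10 gained it. Results not called changed sign 62 times over all these settings, 21 of them in female liver and 15 in male cortex. The cause was not tested.

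The number of iron genes called changed by more than 1.5 times as follows. With the adipocyte covariate it was 2 in male muscle (4 before; 19.6% of all genes) and 3 for the muscle interaction (1 before; 18.7%). In male cortex (0 before) it was 1 with RLE size factors (7.50% of all genes), with DESeq2 (12.2%), with no filter on low counts (2.95%) and with a filter that asks for 10 or more counts throughout (9.41%). An unadjusted p under 0.05 gave 2 of 8 in male cortex (23.8% of all genes), 1 of 10 in female liver (5.77%), 2 of 7 in female muscle (10.7%) and 1 of 8 in female cortex (11.2%), with 0 before in each. For the interaction it gave 2 of 7 in muscle (27.7% of all genes) and 2 of 8 in cortex (15.4%), with 1 before in each. The liver interaction (5 before) gave 3 with the erythroid (19.8% of all genes) and 3 with the endothelial covariate (14.6%), and the muscle interaction 2 with DESeq2 (16.2%) and 2 with the erythroid covariate (14.4%). With the oligodendrocyte covariate 0 were called for the cortex interaction (1 before; 0.0153% of all genes) and 0 for sex in AL cortex (3 before; 0.552%). In males alone r of Bmp6 with endothelial genes was 0.26 in liver and 0.53 in muscle. Leaving out each library gave 7 to 8 in male liver, 3 to 5 in male muscle, 0 to 1 in male cortex and 0 in each female tissue. Over all genes, the same fits called 6842 to 7219 in male liver, 2933 to 3740 in male muscle and 638 to 2060 in male cortex. In females they called 0 in liver, 1 to 3 in muscle and 0 to 254 in cortex.

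A replicate block called 8 of the iron genes in male liver (43.8% of all genes), 3 in male muscle (20.9%) and 0 in male cortex (2.08%) and in each female tissue; the numbers do not pair animals. Counts over all genes were least steady in cortex: male cortex went from 1332 to between 638 and 2060 without 1 library (beyond 1.5 times for AL replicates 2, 3 and 5 and IF replicates 3, 4, 5 and 6), 498 without replicate 2, 382 with the replicate block, 2259 with DESeq2 and 0 with the oligodendrocyte covariate. Female cortex went from 2 to between 0 and 254 (without AL replicate 2), beyond 1.5 times in 15 of 16 fits. Male liver went from 7234 to 4016 with the endothelial covariate, and DESeq2 called 6 genes in female liver, 91 in female muscle and 73 in female cortex. Of 120 group levels 58 moved by over 1 SD when libraries were TMM-scaled over tissues. Covariate fits and those without mitochondrially encoded genes, apart from the erythroid score, were chosen after seeing the data.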
